A study of Mus musculus with 8 samples.

Results

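Expression of a set of epithelial surface serine proteases and their inhibitors was measured in 4T1 cells, an established mouse mammary carcinoma line (genotype WT). The 7 genes were Tmprss11e, St14, Prss8, Spint1, Spint2, Serpinb5 and Serpinb6b, and all 7 were among the 20189 genes of the expression table. They were selected with acetate against vehicle values of this table known, so their changes with acetate are given as a description, without a test. Cells were plated in serum-containing DMEM, acetate (5 mM) or its vehicle, water, was added for 48 hours, and mRNA of the bulk culture was sequenced. There were 4 libraries per treatment, and a vehicle and an acetate library of the same number share a sample code in the labels, which makes 4 pairs. The study asked how added acetate, a source of acetyl-CoA, changes gene expression in a cell line that forms lung metastases. A cell line in culture holds no stroma or immune cells of a tumour, and mRNA says nothing of protein, cleavage or shedding.

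Epithelial cells carry serine proteases on their surface that are made as inactive precursors and cut one another and nearby proteins. Matriptase, encoded by St14, is anchored in the membrane by its amino terminus, and prostasin, encoded by Prss8, by a lipid anchor. Both are held in check by the Kunitz-type inhibitors HAI-1 (Spint1) and HAI-2 (Spint2). Tmprss11e encodes DESC1, a transmembrane serine protease of the HAT/DESC family. Serpinb5 encodes maspin, a clade B serpin known from mammary epithelium that does not act as a classical protease inhibitor, and Serpinb6b encodes another clade B serpin of the mouse.

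The epithelial identity of the cells was checked against markers. Of 11 epithelial markers 10 were analysed here, and each was at 672 normalised reads or more in every library (values are reads per library total of 20000000). Recovered read totals ran from 19.9 M to 29.3 M per library (M, mega), and each value of the 7 genes rested on 173 to 7380 reads. Of the markers of other cell types, the leukocyte markers Ptprc and Lyz2 stayed at or below 3.02 and 2.16 normalised reads, while Cd68 was at 66.7 to 191 and Csf1r at 9.55 to 35.5. The endothelial markers stayed at or below 4.85 and the adipocyte marker Fabp4 at or below 6.61. Of 7 fibroblast markers 5 were analysed here, and Pdgfra stood alone among them, at 229 to 1961, while Dcn did not exceed 14.5 and Col1a2 did not exceed 3.82. In a bulk culture, fewer cells that express a gene and less RNA per cell cannot be told apart. Both libraries of replicate 1 stood apart from the others, and the levels by replicate number, the split of the variance and the correlations are given with and without them.

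Sequence upstream of the annotated start was available for 4 of the 7 genes (RefSeq, build GRCm38.p6) and is shown because these genes follow 3 different patterns across the libraries described below. The sequences are the bases just before the first annotated start, read 5′ to 3′ on the strand of the gene, for Spint1 at chr2:119237110-119237359 (plus strand), Spint2 at chr7:29281978-29282227 (minus), Serpinb5 at chr1:106860925-106861172 (plus) and Serpinb6b at chr13:32965011-32965208 (plus). Capitals mark CAGGTG on either strand, an E-box of the kind bound by Snail and Zeb factors.
Spint1: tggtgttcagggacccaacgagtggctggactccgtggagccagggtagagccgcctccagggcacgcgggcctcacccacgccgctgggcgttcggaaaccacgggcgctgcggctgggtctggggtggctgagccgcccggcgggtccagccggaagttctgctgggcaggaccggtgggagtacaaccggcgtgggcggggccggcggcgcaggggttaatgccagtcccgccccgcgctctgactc
Spint2: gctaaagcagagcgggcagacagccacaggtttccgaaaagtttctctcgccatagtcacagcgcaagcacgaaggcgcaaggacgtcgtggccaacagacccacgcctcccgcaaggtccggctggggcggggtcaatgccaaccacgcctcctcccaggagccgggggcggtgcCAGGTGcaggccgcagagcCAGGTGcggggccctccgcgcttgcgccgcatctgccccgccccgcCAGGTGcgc
Serpinb5: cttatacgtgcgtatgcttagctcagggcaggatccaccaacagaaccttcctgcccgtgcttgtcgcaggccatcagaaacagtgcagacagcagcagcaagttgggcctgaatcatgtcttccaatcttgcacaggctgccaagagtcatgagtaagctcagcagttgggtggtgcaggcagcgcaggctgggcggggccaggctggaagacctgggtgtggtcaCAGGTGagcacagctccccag
Serpinb6b: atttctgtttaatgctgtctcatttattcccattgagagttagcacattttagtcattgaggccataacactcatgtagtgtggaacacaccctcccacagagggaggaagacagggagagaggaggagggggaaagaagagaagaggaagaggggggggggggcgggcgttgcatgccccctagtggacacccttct
Positions are counted from the RefSeq start, which lies directly after the printed sequence in Spint1 and Spint2. Spint2 held 3 copies of the E-box, the first bases at 74, 55 and 9 bases before that start. At least 1 copy was found in 17.2% of 32851 promoter windows of 250 bases, and 3 or more copies in 0.247%. Serpinb5 held 1 copy, 23 bases before the RefSeq start, and no match was found in the windows of Spint1 and Serpinb6b. The GC box GGGCGG, present in 32.7% of all windows, occurred 3 times in Spint1, 3 times in Spint2 and in 1 copy each in Serpinb5 and Serpinb6b. Serpinb5 also held 1 match to the AP-1 motif TGANTCA, which 6.75% of windows hold. TATAAA and the grainyhead motif AACNNGTT were searched on both strands too, with no match in these 4 windows, against 12.4% and 3.64% of all windows. No matches of different motifs overlapped. The Serpinb5 and Serpinb6b windows are shorter, 248 and 198 bases, because an annotated transcript begins 2 and 52 bases upstream of the RefSeq start and the printed sequence ends there.

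Levels of different genes were compared per kilobase of the longest principal transcript. On this scale Spint2 was the highest, at 3314 ± 326 normalised reads per kb (SD over 8 libraries). Tmprss11e followed at 1299 ± 156 and St14 at 1195 ± 132, and these neighbours did not separate, since Tmprss11e was higher in 5 of 8 libraries. Spint1 stood at 743 ± 108, below St14 in 8 of 8 libraries. Prss8 was at 199 ± 69.8, with Serpinb6b at 99.2 ± 24.9 and Serpinb5 at 92.2 ± 31.4. The last 2 did not separate, and Prss8 overlapped Serpinb6b in range although it was higher in 7 of 8 libraries. The order depends on which transcript is made: with all merged exons as the length, Tmprss11e (1299) stood above Spint2 (1007) in 8 of 8 libraries and Spint1 (624) above St14 (510) in 8 of 8.

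Tmprss11e and Serpinb6b were the genes of the set in which the acetate and vehicle libraries did not overlap, in opposite directions. Tmprss11e (ENSMUSG00000054537, chr5:86705186-86745815, minus strand) had 4710, 4858, 4758 and 5033 normalised reads in vehicle libraries 1 to 4 and 3752, 3871, 3799 and 4708 in acetate. The first 3 acetate libraries lay close together and well below every vehicle library, whereas acetate replicate 4 reached the lower edge of the vehicle range. The means were 4840 ± 143 in vehicle and 4033 ± 453 in acetate (SD, n = 4), a change of -16.7% between the means. On the log2(value + 1) scale, used for all changes below, acetate minus vehicle was -0.33, -0.33, -0.32 and -0.10 in pairs 1 to 4, with a mean of -0.27 (SE within pairs 0.04).

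Serpinb6b (ENSMUSG00000042842, chr13:32965209-32979067, plus strand) had 173, 172, 174 and 158 normalised reads in vehicle and 286, 276, 227 and 273 in acetate. The vehicle libraries were nearly level, and every acetate library was above them, with replicate 3 the lowest. The means were 169 ± 7.25 and 266 ± 26.2 (SD, n = 4), a ratio of 1.56 on the fitted scale. The log2 change was 0.73, 0.68, 0.39 and 0.78 in pairs 1 to 4, with a mean of 0.64 (SE within pairs 0.08). Serpinb6b belongs to a family of close paralogs, and 0 of 2119 stretches of 75 bases (the read length) along its transcript were identical to a transcript of another gene.

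**Figure D1:**
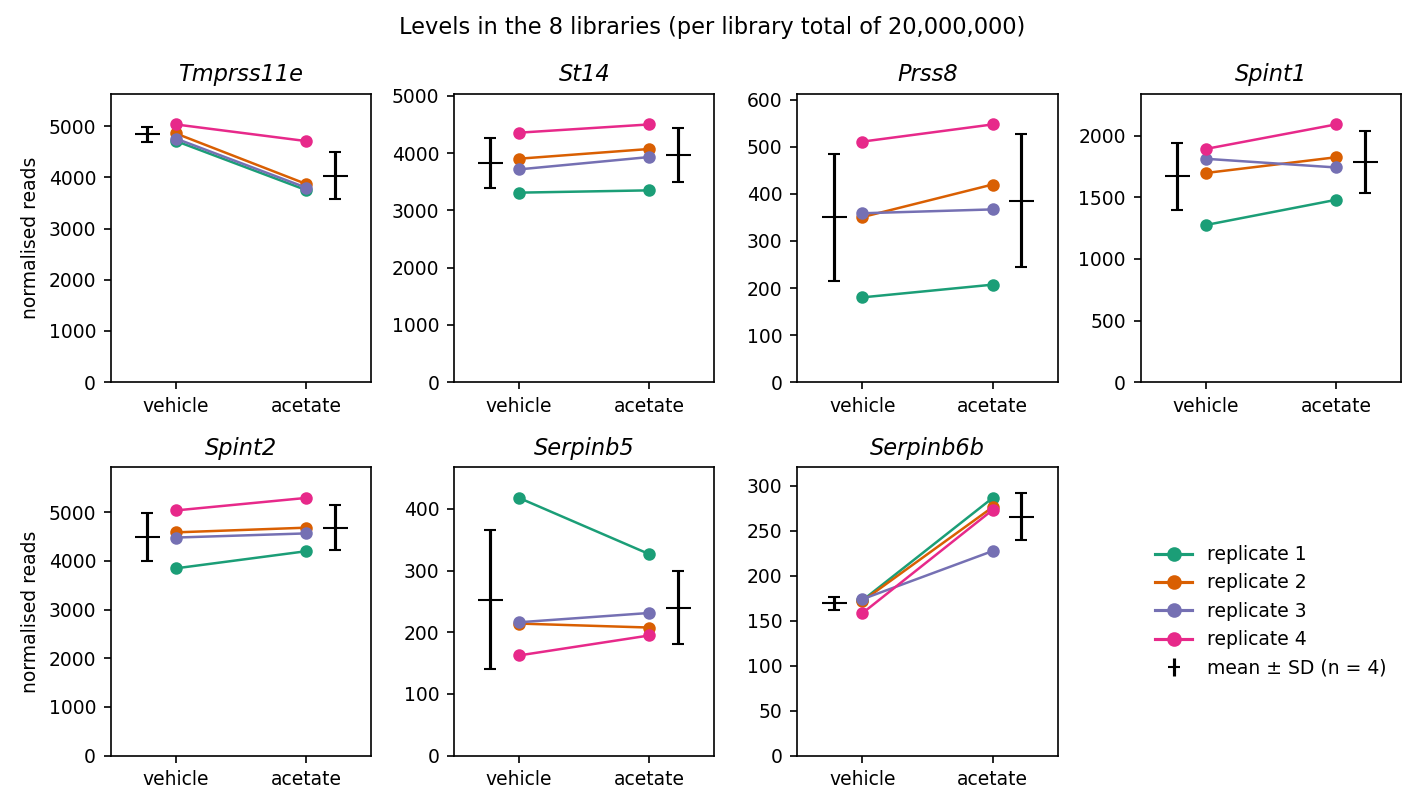
Normalised reads (y axis, per library total of 20000000, from 0) of each of the 7 genes in vehicle and acetate libraries, with lines joining same-numbered libraries and black bars for the mean ± SD (n = 4). Tmprss11e goes down and Serpinb6b up in all 4 pairs, while in St14 and Spint2 the lines run nearly level, and in Serpinb5 they go down in replicates 1 and 2 and up in replicates 3 and 4.

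The surface protease St14 and its partner Prss8 were near their vehicle level. St14 (ENSMUSG00000031995, chr9:31089402-31131853, minus strand) had 3311, 3904, 3718 and 4359 normalised reads in vehicle and 3351, 4074, 3933 and 4503 in acetate. Each acetate library exceeded its own vehicle library by little, 0.02 to 0.08 on the log2 scale with a mean of 0.05, while the libraries of a treatment spread far wider (SD of 435 and 476 normalised reads). Prss8 (ENSMUSG00000030800, chr7:127925716-127930104, minus strand) had 180, 351, 359 and 511 in vehicle and 207, 420, 367 and 548 in acetate. It too was higher in each pair, by 0.03 to 0.26 with a mean of 0.15. Exons of Prss8 share 122 bases with Kat8 on the opposite strand, which had a mean of 273 normalised reads, and 2.70% of its 75-base stretches also lie in Kat8, so that a part of the Prss8 reads is uncertain.

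The Kunitz inhibitors moved as little. Spint1 (ENSMUSG00000027315, chr2:119237362-119249527, plus strand) had 1274, 1696, 1812 and 1891 normalised reads in vehicle and 1479, 1824, 1741 and 2090 in acetate. It was higher in 3 of 4 pairs and lower in replicate 3, with a mean log2 change of 0.10. Spint2 (ENSMUSG00000074227, chr7:29256323-29281912, minus strand) had 3847, 4586, 4480 and 5037 in vehicle and 4199, 4682, 4565 and 5293 in acetate. It was higher in all 4 pairs, by 0.03 to 0.13 with a mean of 0.06.

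Maspin mRNA went both ways. Serpinb5 (ENSMUSG00000067006, chr1:106861173-106883348, plus strand) had 418, 214, 216 and 162 normalised reads in vehicle and 326, 208, 231 and 195 in acetate. The acetate library was lower in pairs 1 and 2 (-0.35 and -0.04) and higher in pairs 3 and 4 (0.10 and 0.26), and the mean change was -0.01. The vehicle mean of 253 ± 113 and the acetate mean of 240 ± 59.6 (SD, n = 4) differed by less than either spread.

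**Figure D2:**
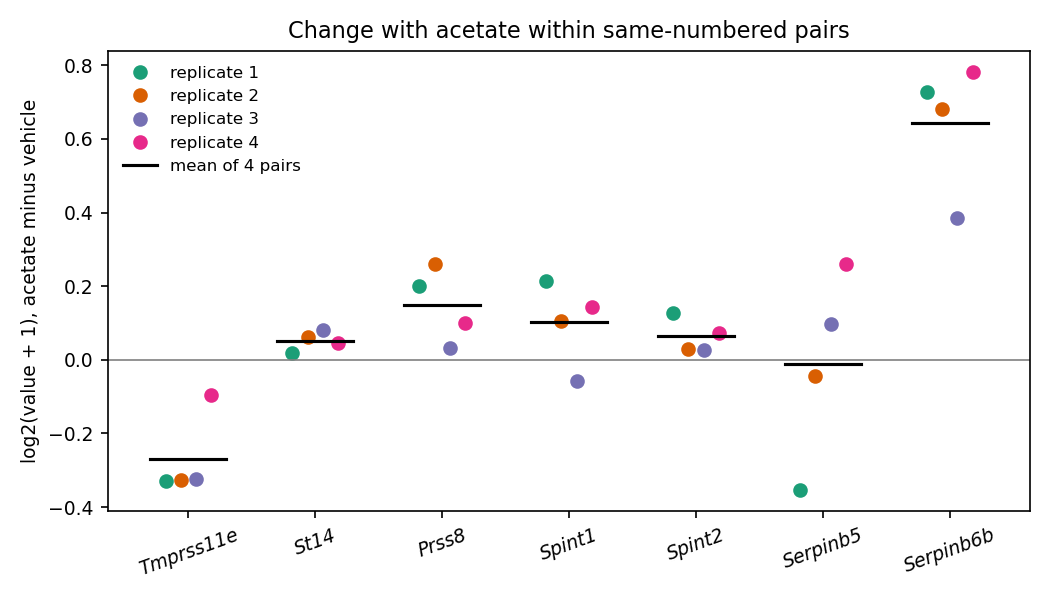
Difference in log2(value + 1), acetate minus vehicle (y axis), in each same-numbered pair (coloured points) and its mean over 4 pairs (black line) for the 7 genes. The points of Tmprss11e run from -0.33 to -0.10 and those of Serpinb6b from 0.39 to 0.78, and those of Serpinb5 fall on both sides of 0.

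Counts of calls are given against all genes, and since the set was selected on this contrast nothing is read from them. In limma without a term for the replicate number, 0 of the 7 genes and 0 of 20189 genes (0.0%) passed an adjusted p of 0.05. There 353 genes, 2 of the set among them, had an unadjusted p under 0.05. In limma with that term 4520 genes had one, 5 of the set among them. On recovered reads edgeR called 0 and DESeq2 called 7 genes without that term, none of them in the set. In limma with the replicate block, 1744 genes passed (8.64%), of which 1209 were higher (5.99% of all) and 535 lower in acetate (2.65%). The higher genes made up 69.3% of these calls, and 54.9% with median-of-ratios scaling (1000 higher and 821 lower). Serpinb6b was among the higher and Tmprss11e among the lower calls of the paired fit, under both scalings and with edgeR and DESeq2 too, and the 5 others were not called. When both libraries of replicate 3 were left out, the blocked fit called Serpinb6b alone of the set and no longer Tmprss11e. Over all genes, every acetate library lay above every vehicle library in 0.996% and below in 0.654%, against 1 and 1 of the 7.

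Ratios of these genes per kb were then taken within each library. Tmprss11e stood to St14 as 1.36, 1.19, 1.22 and 1.10 in vehicle and as 1.07, 0.907, 0.922 and 0.998 in acetate. The ratio was lower with acetate in each pair, with means of 1.22 ± 0.11 and 0.973 ± 0.075 (SD, n = 4). Thus St14 passed Tmprss11e in 3 of 4 acetate libraries and in none of the vehicle libraries on this scale. The ratio of St14 to Spint2, in contrast, was 0.362 ± 0.007 in vehicle and 0.359 ± 0.014 in acetate, and over the 8 libraries it ran from 0.339 to 0.370. St14 to Spint1 had means of 1.65 ± 0.16 and 1.59 ± 0.037.

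Summed over Tmprss11e, St14 and Prss8 and set against both Kunitz inhibitors, the ratio was 0.749, 0.695, 0.679 and 0.693 in vehicle and 0.610, 0.626, 0.622 and 0.647 in acetate. The groups did not overlap. Since Tmprss11e is part of the sum and was selected with this contrast known, nothing is read from that. Without Tmprss11e the means were 0.343 ± 0.014 and 0.342 ± 0.021, with 2 pairs higher and 2 lower, so the difference in the sum lay in Tmprss11e, whose share of the 3 proteases was 51.2% ± 3.13 in vehicle and 45.4% ± 2.51 in acetate (SD, n = 4). With merged exons as lengths, the 3 proteases stood to the inhibitors as 1.33 ± 0.088 and 1.14 ± 0.029, again lower in 4 of 4 pairs. Serpinb6b to Serpinb5 had means of 0.912 ± 0.290 and 1.40 ± 0.313 and was higher with acetate in 4 of 4 pairs.

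The level by replicate number was not used to select the genes and was tested. The limma F test, with treatment as a term and Benjamini-Hochberg adjustment over all genes, called 6 of the 7 genes, all but Serpinb6b. It called 58.2% of all genes and 85.9% of the 10095 genes above the median level (117 normalised reads), where all 7 lie, so a share of this size is common to well-expressed genes of these cultures. St14, Prss8, Spint1 and Spint2 were lowest in replicate 1 and highest in replicate 4, and Serpinb5 was highest in replicate 1 and lowest in replicate 4.

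Prss8 showed the widest range, with pair means of 194, 385, 363 and 529 normalised reads for replicates 1 to 4, 2.73-fold from lowest to highest (limma adjusted p 1.20e-07). Serpinb5 had pair means of 372, 211, 224 and 179, a 2.08-fold range in the opposite direction (limma adjusted p 9.27e-05). Without replicate 1 the ranges were 1.46-fold for Prss8 and 1.25-fold for Serpinb5. Prss8 remained called (limma adjusted p 3.78e-04) and Serpinb5 did not (limma adjusted p 0.0652). That fit had 6 libraries, and it called 6199 of all genes against 11746 with all 8 libraries.

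St14 had pair means of 3331, 3989, 3825 and 4431 (limma adjusted p 1.02e-05), Spint1 1376, 1760, 1776 and 1991 (limma adjusted p 5.13e-05) and Spint2 4023, 4634, 4522 and 5165 (limma adjusted p 5.14e-05). These ranges were narrower, 1.33-fold, 1.45-fold and 1.28-fold. Without replicate 1 they were 1.16-fold, 1.13-fold and 1.14-fold, and the 3 genes were still called (limma adjusted p 0.00207, 0.0365 and 0.00311). How low replicate 1 lies depends on the scaling, since median-of-ratios scaling raises that pair by 0.20 log2 relative to the others. With it, the St14 means were 3693, 3829, 3696 and 4307 and those of Spint2 were 4459, 4449, 4370 and 5021, so that replicate 4 stood out and replicate 1 did not. Spint1 (1525, 1689, 1717 and 1934) stayed lowest in replicate 1 and highest in replicate 4. Prss8 (215, 370, 351 and 515) and Serpinb5 (413, 202, 216 and 173) kept replicate 1 apart, and the same 6 genes were called.

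Tmprss11e differed less between pairs, with means of 4231, 4365, 4279 and 4871 (limma adjusted p 0.0176), and without replicate 4 it was not called (limma adjusted p 0.501). Serpinb6b, at 229, 224, 201 and 216, was not called (limma adjusted p 0.565, and 0.0577 with median-of-ratios scaling).

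**Figure D3:**
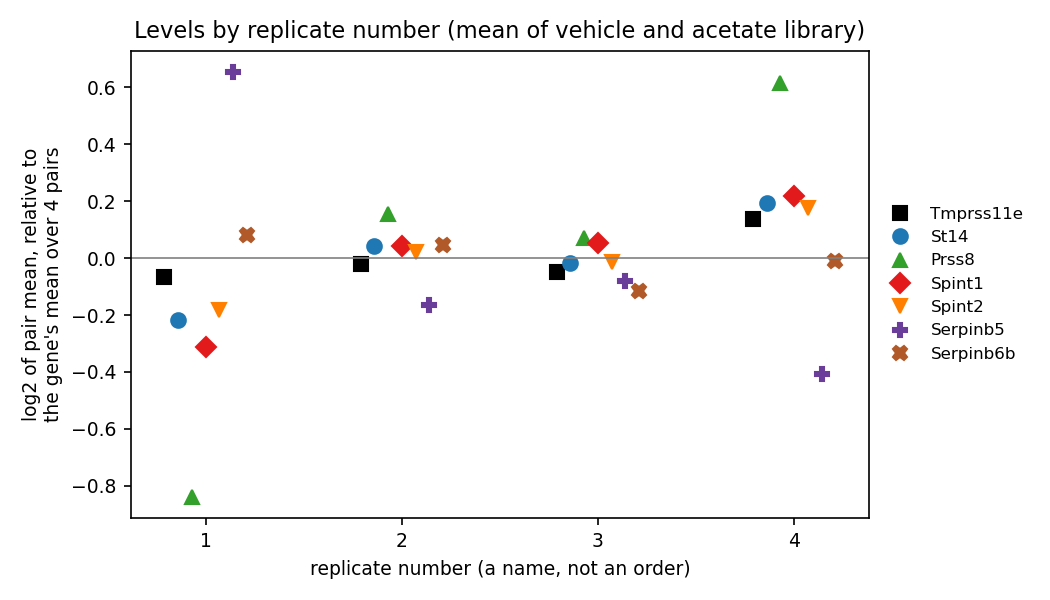
Log2 of the mean of the vehicle and acetate library of each pair, relative to the mean over the 4 pairs of the gene (y axis), by replicate number (x axis, where the number is a name and not an order). Prss8 lies lowest in replicate 1 and highest in replicate 4, and Serpinb5 lies the other way round.

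The split of the variance over the 8 libraries set the genes apart in the same manner. The replicate number held 96.4% of the variance of St14, 97.4% of Prss8, 88.3% of Spint1, 92.1% of Spint2 and 92.3% of Serpinb5. Treatment held 2.97%, 1.93%, 5.98%, 5.67% and 0.0157% of these. In Serpinb6b treatment held 91.4% and the replicate number 3.37%, and in Tmprss11e treatment held 65.3% and the replicate number 25.7%. Without replicate 1 the replicate number held 88.4% in St14, 89.8% in Prss8, 68.8% in Spint1, 92.4% in Spint2 and 74.6% in Serpinb5, and treatment held 90.5% in Serpinb6b and 60.0% in Tmprss11e. The treatment shares describe the contrast by which the genes were chosen. These shares, and the correlations below, are on the deposited scaling, and median-of-ratios scaling raises replicate 1 by 0.20 log2 relative to the others.

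**Figure D4:**
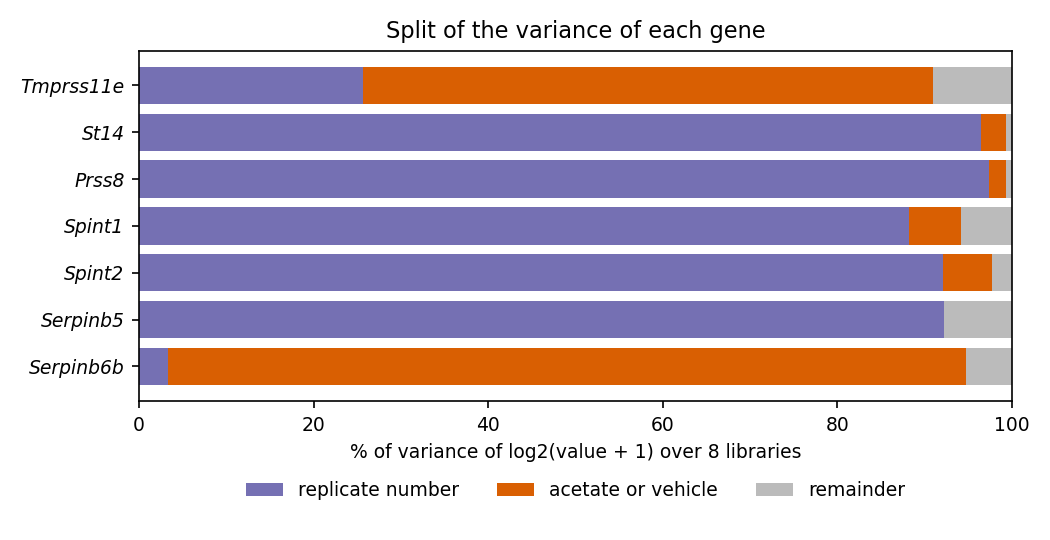
Percent of the variance of log2(value + 1) over 8 libraries (x axis) that lay between replicate numbers, between treatments and in the remainder, for each of the 7 genes. Replicate number fills most of the bar in St14, Prss8, Spint1, Spint2 and Serpinb5, and treatment in Serpinb6b and Tmprss11e.

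Across the 8 libraries, which share their treatments and pairs, St14, Prss8, Spint1 and Spint2 correlated with each other at r = 0.92 to 0.98, and Serpinb5 with them at -0.96 to -0.90. Tmprss11e and Serpinb6b had r = -0.76 with each other. Over the 6 libraries without replicate 1 these values were 0.81 to 0.97, -0.78 to -0.53 and -0.67. By the same measure the genes most like Prss8 were Bcl9l, Ank3 and Tnfrsf1b, and 2418 of 10094 genes above the median level had an r over 0.9 with it. St14 (nearest Marc2, Pik3r1 and 4930523C07Rik) had 1854 such genes, Spint1 (Nrbp2, Cdip1 and Snx30) 1912, Spint2 (Ptgs1, Serinc2 and Slc39a4) 1432 and Serpinb5 (Adam19, Tmem131 and Tjap1) 1309. Few genes resembled the other two. Tmprss11e had 7, led by Ubr1 (r = 0.98), Mycbp2 (0.95) and Brd1 (0.94), and Serpinb6b had 9, led by Tubb2b, Hsp90b1 and Ubqln2 (0.94 each). Without replicate 1 the counts over 0.9 were 1165 for Prss8, 1300 for St14, 216 for Spint1, 1276 for Spint2, 322 for Serpinb5, 89 for Tmprss11e and 145 for Serpinb6b.

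Markers of cell types also differed between the pairs and treatments. Pdgfra, a receptor typical of fibroblasts, was at 229 and 388 normalised reads in the vehicle and acetate library of replicate 1 and at 1036 to 1961 in the others. The fibroblast markers analysed here summed to 234 to 1527 in vehicle and 399 to 2005 in acetate, nearly all of it Pdgfra, and 2 of the 5, Pdgfra and Pdgfrb, were called higher with acetate in limma with the replicate block, against 5.99% of all genes. Of the 10 epithelial markers 4 were called higher and 0 lower, Krt19 (log2 change 0.40), Krt14 (0.36), Cldn4 (0.30) and Cdh1 (0.15). The others were not called and went both ways. Cldn3 (0.15), Epcam (0.07) and Krt7 (0.05) had a change above 0, and Krt8 (-0.06), Krt18 (-0.05) and Cldn7 (-0.04) below 0. The leukocyte markers summed to 93.1 to 203 in vehicle and 100 to 214 in acetate, mostly Cd68. Of the 4 analysed here 1 was called with the block, Csf1r, at 9.55 to 17.9 in vehicle and 21.7 to 35.5 in acetate. The part of these markers in the levels of the 7 genes was not tested.

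The wider families were read from 5 lists with 95 genes, of which 44 were analysed here. Without the block none of the 44 passed in limma, and the unadjusted p was under 0.05 in 2. Under the replicate block 6 were higher and 2 were lower in acetate, 18.2% of the 44 against 8.64% of all genes, and the median log2 change of the 44 was 0.12 against 0.02 over all genes. The lists were chosen with earlier results of these data known, so nothing is read from these shares. Of the 44, 22 had a mean of at least 10 units. With that filter the same 8 passed, as did 2263 genes over the whole table. Of these 8 calls, F2rl1 and Slpi were called in each of the 4 fits that left out a pair, in which 2 (without replicate 3) to 6 (without replicate 1) of the 44 passed. The calls of Klk8, Klk10 and App were not made by DESeq2 with the block.

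Among 18 other type II transmembrane serine proteases 7 were analysed here, and limma called 0 of them with the block, 0 also by an unadjusted p under 0.05. All were low, so that Tmprss11e and St14 were the abundant members of that family, and the highest was Tmprss4, at 0 to 32.8 normalised reads. Of 18 tryptase-like proteases and kallikreins 8 were analysed here, with 1 higher and 1 lower. Klk8 (neuropsin) rose from 151 ± 23.6 to 191 ± 40.5 normalised reads, a log2 change of 0.32 (limma adjusted p 0.0330 with the block), and Klk10 fell from 354 ± 159 to 303 ± 136, a change of -0.23 (limma adjusted p 0.0331 with the block). The most abundant of them was Prss22, named after its values were seen, which like Prss8 was lowest in replicate 1 (766 in vehicle and 724 in acetate) and highest in replicate 4 (1961 and 2233).

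Of 13 substrates of matriptase or prostasin and their receptors 10 were analysed here. F2rl1 encodes PAR2, a receptor that matriptase can switch on by cleavage. It had 1551, 1738, 1581 and 1819 normalised reads in vehicle and 1926, 2249, 1915 and 2178 in acetate, and the groups did not overlap. It rose by 0.30 on the log2 scale (limma adjusted p 3.51e-04 with the block). Plaur, the receptor of urokinase, fell in each pair, from 2342 ± 709 to 2057 ± 508, with a log2 change of -0.17 (limma adjusted p 0.00856 with the block). Epcam, a cleavage target of matriptase named after its values were seen, did not pass for acetate and followed the replicates like Prss8, with 4319 and 4531 in replicate 1 against 9279 and 10020 in replicate 4.

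Of 21 other Kunitz, Kazal and WAP inhibitors 10 were analysed here, and 4 rose with acetate while 0 fell in limma with the block. Slpi, a secreted inhibitor of leukocyte proteases, had 369, 2045, 1854 and 3533 normalised reads in vehicle and 706, 3363, 3308 and 5200 in acetate. Each acetate library was well above its own vehicle library, yet the groups overlapped, since replicate 1 was low and replicate 4 high in both. The log2 change was 0.76 (limma adjusted p 3.28e-05 with the block). The WAP protein gene Wfdc2 rose from 8679 ± 259 to 9742 ± 545, a change of 0.17 (limma adjusted p 0.00432 with the block). App and Aplp2, whose proteins have isoforms with a Kunitz domain, rose by 0.14 and 0.13 (limma adjusted p 0.0283 and 0.00703 with the block), and App lost its call with median-of-ratios scaling.

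Of 25 other clade B serpins 9 were analysed here and 0 passed in limma with the block, while 3 had an unadjusted p under 0.05. Serpinb6a, the abundant relative of Serpinb6b, averaged 5875 ± 214 normalised reads without and 6008 ± 176 with acetate, which is a log2 change of 0.03 (limma adjusted p 0.543 with the block). Serpinb9, an inhibitor of granzyme B, had 206 ± 30.3 and 239 ± 33.5, a change of 0.21 (limma adjusted p 0.120 with the block). Serpinb2, named after its values were seen, was at 257 and 192 in replicate 1 and at 4.31 to 30.2 in the 6 other libraries, and so was highest in the same pair as Serpinb5. With the block edgeR called it lower in acetate.

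**Figure D5:**
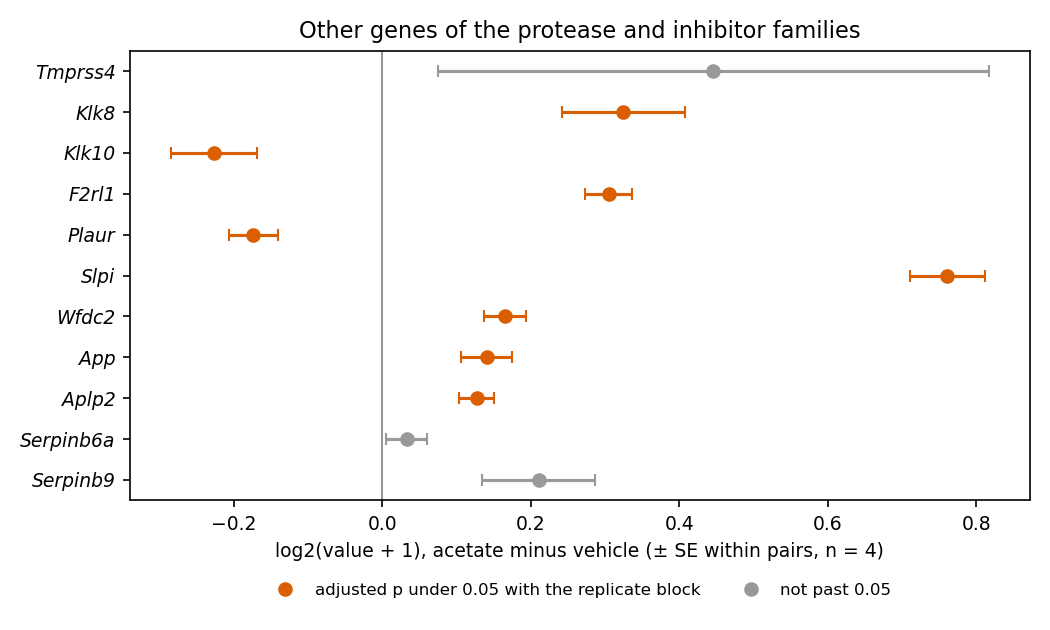
Difference in log2(value + 1), acetate minus vehicle (x axis), with its SE within 4 pairs, for the 11 genes named from the 5 lists of related proteases, substrates and inhibitors. Orange points passed an adjusted p of 0.05 in limma with the replicate block, Slpi lying furthest to the right at 0.76 and Klk10 furthest to the left at -0.23.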

How the data were processed

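Poly-A RNA of 8 libraries was sequenced. Per the submitters' processing notes, STAR and HTSeq were used, and the build was GRCm38. Whether counting used strand is not given in the sources used here. Deposited values are normalised signal, which the authors obtained by scaling the reads of each library to its own total, here a sum of 20000000 in all 8. The table holds genes above 0 in at least 4 libraries. Low values were whole multiples of 1 read, and 100% of values came out whole (within 0.1 read) in each library, which gave back the reads.

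Changes were fitted with limma 3.58.1 (R 4.3.3, two-sided, moderated with a mean-variance trend) on log2(value + 1), a scale that understates changes of low genes, with Benjamini-Hochberg adjustment over 20189 genes and a threshold of 0.05. A second fit added a replicate block. Libraries of the same number share a code in the labels. Their deviations from their group mean correlated at 0.81, 0.27, 0.20 and 0.69 over 18188 genes, so the numbers pair the libraries. The study's legends give the replicates as independent experiments, which the labels do not state. edgeR 4.0.16 and DESeq2 1.42.0 on recovered reads were alternatives, as were pseudocounts of 0.1 and 5, a filter at a mean of 10 units, median-of-ratios scaling and leaving out libraries or pairs.

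The 7 genes and the lists were chosen with earlier results of these data known. Named genes were the 7, up to 4 called genes per list with a mean of at least 10 units by size of change (or, where none passed, up to 2 with the highest mean) and the 3 genes with the highest Pearson r to each of the 7. Positions are from GENCODE on GRCm38. Lengths per kb were those of the longest principal transcript.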

Additional observations from a re-analysis of the deposited data

Results flagged for a closer look

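Each of 30 groups of 4 libraries was searched for a single value standing off from its group. There were 2, and chance alone gives about 1 in 20, here 1.5. Tmprss11e was at 4708 normalised reads in acetate replicate 4, against 3752 to 3871 in the other acetate libraries, a gap of 0.875 of the range of the group. Serpinb6b was at 158 in vehicle replicate 4, against 172 to 174 in the other vehicle libraries, a gap of 0.860 of the range.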

How the results depend on the processing

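Without the replicate block limma called 0 of 20189 genes and 0 of the 44 related genes, and DESeq2 called 7 of all genes. With the replicate block the counts were 1744 and 8 in limma, 1821 and 7 with median-of-ratios scaling, 2400 and 9 in edgeR and 1126 and 5 in DESeq2. Leaving out a pair gave 409 (without replicate 3) to 1662 of all genes and 2 to 6 of the 44. The replicate number was called in 11746 genes, and in 6199 (without replicate 1) to 11610 with a pair left out. Pseudocounts and the filter in the blocked fit, merged exons as lengths, the scaled pair means and the pair means, variance and correlations without replicate 1 were tried after seeing the data. The log2 changes of Tmprss11e and Serpinb6b kept their direction in every alternative. With a library left out and no block, St14 ran from -0.015 to 0.13, Prss8 from -0.14 to 0.42, Spint1 from -0.023 to 0.19, Spint2 from -0.0080 to 0.12 and Serpinb5 from -0.19 to 0.26, and with a pair left out Serpinb5 ran from -0.10 to 0.10. An unpaired fit that lacks a library leaves its pair incomplete, so these ranges carry the spread between replicates. At 19.9 M to 29.3 M reads counting error is large for related genes under 10 normalised reads and smaller for the 7 genes. Among the 7 it weighs most on Serpinb6b, Serpinb5 and Prss8, with as few as 173, 215 and 236 reads in a library. Its part in their small differences was not tested.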
